A study of Mus musculus with 18 samples.

Results

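Cells in the brightest FoxA2-tagRFP sorting gate (High) are compared here with cells in the middle gate (Mid) of mouse embryos whose FoxA2 protein lacks part of an α-helix (ΔHx, the helix mutant). The comparison uses 6 of the 18 libraries of the series, 3 from each gate, taken by their labelled genotype and fluorescence level. It covers all 24498 genes of the deposited table, of which 14711 had a normalised read count of at least 10 in at least 3 libraries and were tested.

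Every embryo behind these 6 libraries was homozygous for a knock-in allele in which FoxA2, with 10 amino acids of the helix removed, is followed by a flexible linker and the red fluorescent protein tagRFP, so the cells held no untagged and no full-length FoxA2. The embryos were at embryonic day 7.5, on a mixed C57Bl6/J x CD-1 background, from superovulated dams, and were not sexed. Their extra-embryonic portion was cut away for genotyping. Each sort started from a pool of about 10 embryos and yielded 2500 to 5000 cells, of which RNA equal to that of 1000 cells went into a SMART-Seq2 library. The High gate lay above the signal of heterozygous cells, and the Mid gate ran from above autofluorescence to the heterozygous maximum. Cells without signal (Neg, 3 libraries) and the same gates from embryos homozygous for the intact tagged protein (WT, 3 libraries for each gate) are given beside the ΔHx values. The labels call the libraries biological replicates and do not say whether equal numbers share a litter or a day, so p-values measure the spread between these pools.

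FoxA2 is a forkhead transcription factor that can bind its sites in compacted chromatin. In the gastrulating embryo it is needed for the node and notochord, and it is made at lower levels in endoderm. The node is a small pit of ciliated cells at the tip of the embryo, whose descendants form the notochord. The visceral endoderm is the absorptive epithelium on the outside of the embryo that feeds it before a placenta exists, and mesoderm is laid down at the primitive streak beside these cells.

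The 6 libraries held 15448305 to 17194136 reads in genes. The ribosomal RNA precursor Rn45s took 27.9% to 37.5% of them in High and 30.3% to 43.0% in Mid, and the ranges overlap. Reads fell in 15649 genes in ΔHx High replicate 3, the fewest of the 6, and in at least 16016 and at most 17702 in the rest. What part these differences played in the results was not tested. Among the WT libraries used for comparison, WT Mid replicate 1 stood apart in genes of the parietal endoderm, and its values are given with those results. Values below are normalised read counts. Differences are High minus Mid on the log2(value + 1) scale, which understates the change of low genes, and adjusted p-values are limma's with Benjamini-Hochberg adjustment over all genes tested.

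Foxa2 itself (mm10, chr2:148042877-148046969, minus strand) followed the gates. Its counts were 1848, 2078 and 2385 in the High libraries and 547, 611 and 1229 in the Mid libraries. The gates did not overlap, but Mid replicate 3 stood about midway to the lowest High library. The log2 difference was 1.49 (SE 0.28, adjusted p = 0.000537). Neg libraries averaged 53.6 ± 9.65 (SD, n = 3). Cells were sorted on this protein, so the value checks the gates. It does not check the helix deletion, which removes only a short piece of the coding sequence.

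Of the 14711 genes tested, 3769 (25.6%) were called at an adjusted p under 0.05 (limma). There were 1959 higher (13.3%) and 1810 lower (12.3%) in High. At least 2-fold differences were called in 7.74% of genes higher and 6.04% lower. At least 4-fold differences were called in 531 genes higher (3.61%) and 480 lower (3.26%), and at least 16-fold differences in 47 (0.319%) and 73 (0.496%). The 3 High libraries all lay on one side of the 3 Mid libraries in 39.1% of genes, above them in 19.7% and below them in 19.4%. The median gene differed by -0.01. With libraries rescaled to equal totals that median rose to 0.12 and the calls became 2177 higher and 1142 lower, so 65.6% of calls were higher against 52.0% with the deposited scaling. With totals that left out Rn45s the median was 0.02, with 2162 higher and 1610 lower.

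**Figure D1:**
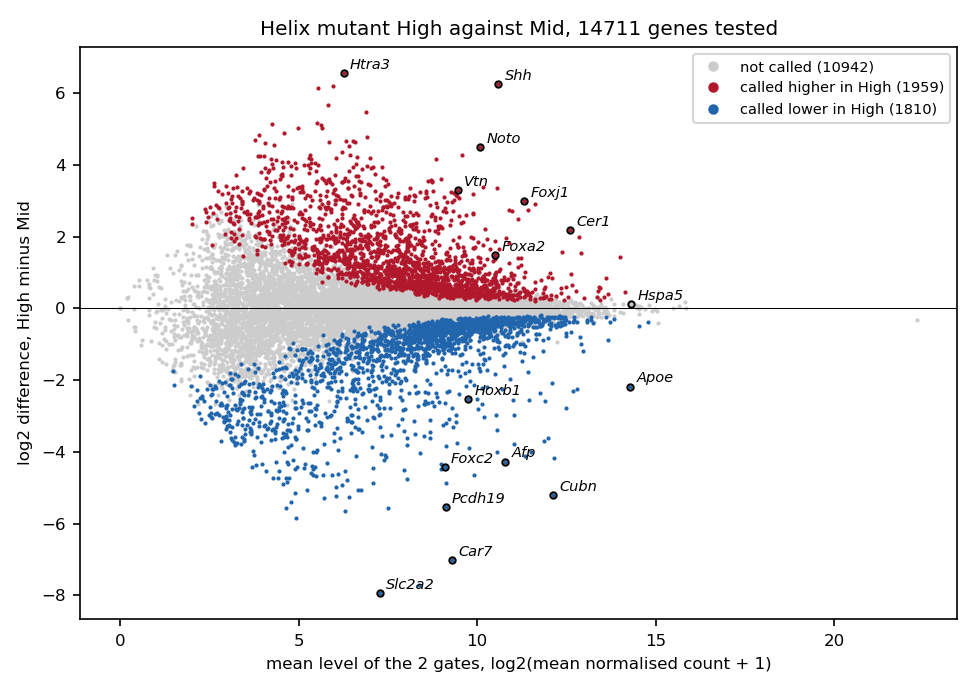
Each point is 1 of the 14711 genes tested. The horizontal axis is the mean level over both ΔHx gates as log2(mean normalised count + 1) and the vertical axis is the log2 difference, High minus Mid. Red points were called higher (1959), blue points lower (1810) and grey points were not called. Htra3 and Shh lie at the top, and Slc2a2 and Car7 at the bottom.

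The plot of all genes by level shows called genes over a wide range of levels. The largest rise among genes named by rule was in Htra3, a secreted serine protease, with counts of 136, 130 and 184 in High and 0, 2.93 and 0 in Mid. Those Mid counts come from 3 reads, and the ratio of reads, adjusted for library scaling, was 150 (exact 95% interval 51.0 to 729, counting error only). Shh, the signalling protein of the notochord, followed with a log2 difference of 6.26. Tcte1 and Ribc2, which encode axonemal proteins, were called with log2 differences of 6.20 and 5.17. So were Lmx1a, a LIM homeobox factor, at 5.48, and Nek10, a kinase, at 5.10. Col6a5 (collagen VI), Slco4a1 (an organic anion carrier), Hdc (histidine decarboxylase), Grin3a (a glutamate receptor subunit), Insrr (an insulin receptor relative) and the pseudogene Smkr-ps made up the 12 largest rises, at 4.63 to 5.03. Mid counts came from 3 reads in Tcte1 and in Col6a5, 5 in Nek10, 6 in Ribc2 and 8 in Smkr-ps. The ratio of reads, adjusted likewise, was 121 in Tcte1 (exact 95% interval 41.2 to 590) and 60.9 in Col6a5 (20.5 to 297), counting error only.

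The largest falls were of a different kind. Slc2a2, the glucose transporter of liver and absorptive epithelia, had counts of 353, 296 and 267 in Mid and 0, 0.906 and 0 in High, the latter from 1 read. Car7, a carbonic anhydrase, was at 1308, 1091 and 1268 against 13.2, 58.9 and 0. Mbl2, a liver lectin, had 0 reads in High and 177 in Mid, which is at least 22.5-fold lower when each High library is set to a floor of 3 reads. Klb, Fxyd2, Grin2c, Gc and Cubn fell as well (log2 -5.20 to -5.65), and so did Ripply2, Pcdh19 and Mesp2, which are described with the mesoderm.

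Node and notochord genes were higher in High nearly throughout. Of 20 genes in the list 18 were tested, and 17 of them rose and 1 fell. The list's median log2 difference was 2.74, against -0.01 for all genes tested, of which 13.3% rose. Shh (chr5:28456815-28467256, minus strand) was at 3517, 2753 and 2847 in High and 27.0, 38 and 54.7 in Mid. The Mid counts of Shh were at the level of the ΔHx Neg libraries, 40.2 ± 17.4. This did not hold in WT, where the Shh means were 72.4 in Mid and 2.05 in Neg. Its log2 difference of 6.26 had an SE of 0.62 (adjusted p = 7.67e-07). Noto, a homeobox factor of the node, was at 2558, 2014 and 1624 against 127, 96.5 and 58.2, a log2 difference of 4.49 (SE 0.59, adjusted p = 1.76e-05). Foxd4, a forkhead factor, was at 1545, 1522 and 1300 against 74.4, 76.1 and 73.0, and Mid again equalled Neg (78.0 ± 16.7). Its log2 difference was 4.27 (SE 0.27, adjusted p = 4.82e-09).

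The BMP antagonists of the node rose too. Nog was at 988, 772 and 828 in High and 52.1, 63.4 and 31.9 in Mid (log2 4.15, adjusted p = 2.07e-06). Chrd was at 5431, 5328 and 6072 against 708, 803 and 714 (log2 2.92, adjusted p = 4.08e-06). Both sets of libraries were tight and far apart. T, the Brachyury factor of streak and notochord, rose from 3189, 3571 and 2241 in Mid to 11514, 11811 and 12039 (log2 2.00), and its Mid level was near that of Neg (2249 ± 692). Sox9, an HMG-box factor of axial cells, had a log2 difference of 2.72. The smallest called rises in the list were in Ptch1 (0.54), Car3 (0.88) and Rfx3 (1.03). The member that fell was Cited1, a transcriptional co-regulator, with 242, 314 and 214 in High and 2014, 2113 and 2068 in Mid (log2 -3.02, SE 0.21, adjusted p = 7.96e-09). The members' summed counts were 45146 to 47285 in High and 9762 to 11473 in Mid, so libraries of a gate differed little.

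**Figure D2:**
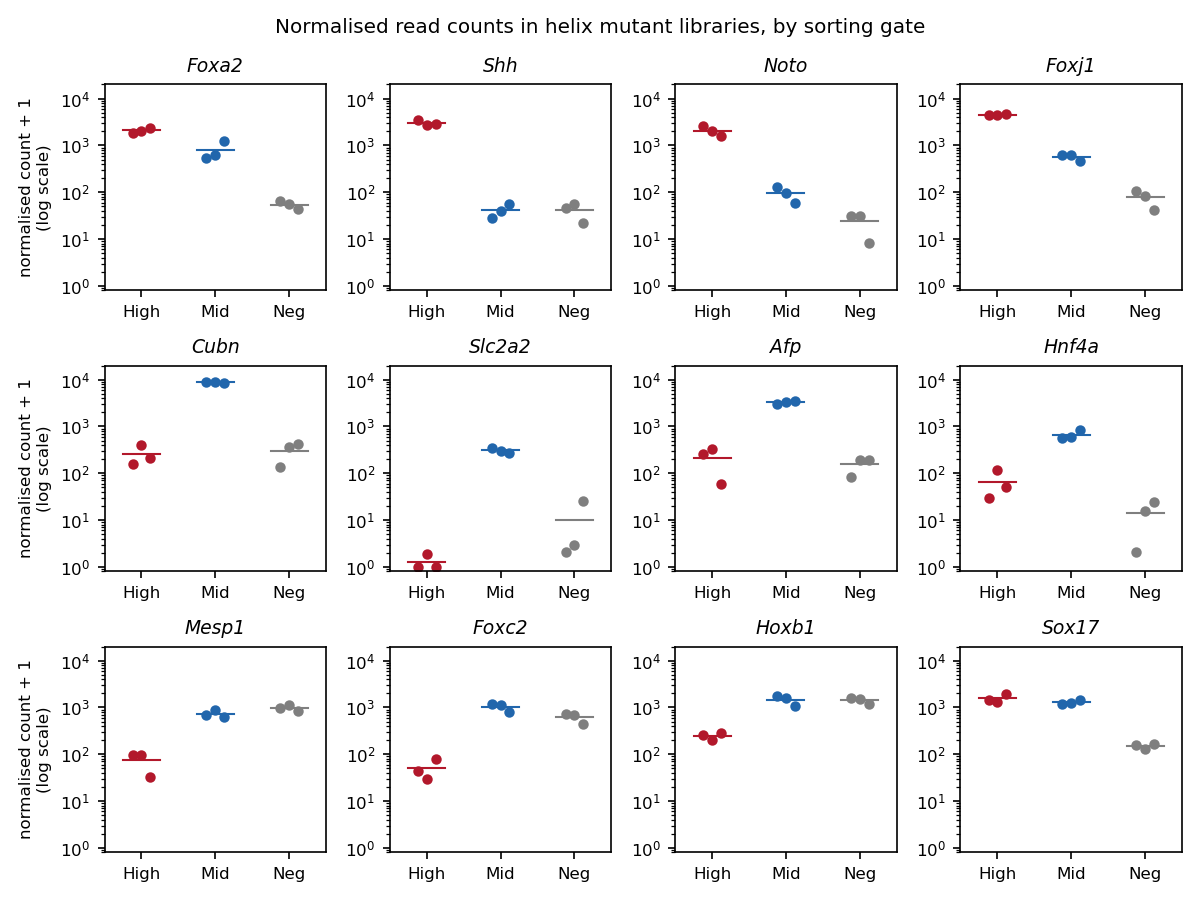
Normalised read counts + 1 (log scale) of 12 genes in the 9 ΔHx libraries, by sorting gate. Each point is a library and each bar the mean of 3. Shh, Noto and Foxj1 are highest in High, Cubn, Slc2a2, Afp and Hnf4a peak in Mid, Mesp1, Foxc2 and Hoxb1 are lowest in High, and Sox17 lies at like levels in High and Mid.

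The prechordal plate and anterior mesendoderm, which underlie the future head, were mixed. Of 13 tested genes 6 rose (46.2%) and 2 fell (15.4%), beside 13.3% and 12.3% of all genes tested (list median 0.75). Cer1, a secreted antagonist of Nodal, BMP and Wnt ligands, was at 9102, 8814 and 12351 in High and 1828, 2070 and 2830 in Mid (log2 2.18, SE 0.22, adjusted p = 8.96e-07). Lhx1, a LIM factor of the head organiser, was at 2410, 2575 and 5028 against 917, 1400 and 1965 (log2 1.21, adjusted p = 0.0019). Six3, of forebrain and its inducing tissue, had a log2 difference of 2.44. Gsc, the homeobox factor of the organiser, ran from 449 to 839 in High and from 84.7 to 623 in Mid, the groups overlapped, and it was not called (log2 1.34, adjusted p = 0.0623). In Foxa2, Cer1, Lhx1 and Gsc alike, replicate 3 had the highest count of each gate. Sfrp5, a Wnt antagonist, fell (-1.71), though its libraries overlapped. Without ΔHx Mid replicate 1 the rises in this list were 3, and Hesx1 was no longer called. The falls were 1 without High replicate 1, High replicate 3 or Mid replicate 3.

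Genes of the motile cilium formed the broadest group of rises. Motile cilia of the node move fluid, and their axoneme carries dynein arms, spokes and linkers that immotile cilia lack. Foxj1, the main activator of the motile cilia programme, was at 4464, 4486 and 4645 in High and 625, 617 and 471 in Mid. These libraries did not overlap, and the log2 difference was 3.00 (SE 0.47, adjusted p = 0.000102). Of 10 regulators of motile ciliogenesis tested, 8 rose and 0 fell (median 2.12). Fank1 (log2 2.77) and Ccno (2.15), which act in multiciliated cells, were among them. The RFX factors, which bind promoters of cilia genes, rose unequally: Rfx4 by 3.15, Rfx2 by 2.09 and Rfx3 by 1.03 on the log2 scale. Rfx1 (0.36) and Myb (-1.02) were not called.

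Of 27 dynein arm subunits and assembly factors 24 rose and 0 fell (median 2.23). Dnaic1, an intermediate chain of the outer arm, was at 260, 184 and 330 in High and 14.0, 10.7 and 37.6 in Mid (log2 3.73, SE 0.48, adjusted p = 1.21e-05). Zmynd10, an arm assembly factor, was at 916, 772 and 664 against 120, 90.7 and 45.6 (log2 3.28). Dnah5, an outer arm heavy chain, was at 930, 1032 and 897 against 167, 92.6 and 86.7 (log2 3.10). Zmynd10 and Dnah5 had Mid counts above the Neg mean in every library, and Dnaic1 did in 2 of 3. Dnah11, whose loss randomises left-right asymmetry, rose less, by 1.35 on the log2 scale. Dnaaf2 (0.21), Dnah8 (0.37) and Dnal1 (0.73) were not called.

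The other axonemal proteins behaved alike: 45 of 47 tested rose and 0 fell, with a median of 2.48. Cfap45, a protein inside the microtubule doublet, was at 988, 1020 and 784 in High and 114, 64.4 and 57.0 in Mid (log2 3.61). Rsph4a, a radial spoke head protein, was at 949, 810 and 519 against 97.7, 88.7 and 25.1 (log2 3.59). Hydin, of the central pair, was at 387, 342 and 207 against 44.7, 62.4 and 4.56 (log2 3.58). High libraries lay above all Mid libraries in each, and replicate 3 was the lowest of both gates in each. Ak7, an axonemal adenylate kinase, had a log2 difference of 3.62. The 2 members not called were Fam166b (2.01) and Spag17 (-0.28), a central pair protein with only 52 and 59 reads in High and Mid. The members' summed counts were 21135 to 27374 in High and 3580 to 5648 in Mid.

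Intraflagellar transport carries cargo in all cilia, motile or not. Its trains, the BBSome and the transition zone gave smaller rises, 45 of 58 with 0 falls and a median of 0.97. Ttc30b, a train subunit, was at 527, 523 and 498 in High and 123, 143 and 69.6 in Mid (log2 2.26). Wdr35 (1.71), Ttc26 (1.70) and Wdr19 (1.66) followed among the called genes. Among those not called were Ift20 (0.03), Arl13b (0.21) and Cep290 (0.37).

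Promoters of these genes were read from RefSeq (GRCm38.p6, 250 bases before to 50 after the start site), where 11157 of the 14711 tested genes matched by symbol. The letters GTTGCCA, a core of the RFX motif, were searched on both strands. They stood in 12 of 60 axonemal promoters (20.0%), in 12 of 50 intraflagellar transport promoters (24.0%), and in 4.15% of the promoters of tested genes (4.46% of all 27025 in the table). By call they stood in 8.28% of promoters of genes called higher, 13.5% of those called at least 4-fold higher and 1.45% of those called at least 4-fold lower. A longer form, GTTGCCNNG, which overlaps the first in its letters, gave 26.7%, 36.0% and 6.00% in the same order of axonemal, transport and tested promoters. A match is a description of these letters and not a binding site. The 120 bases before the start site of 4 members are shown as examples that hold the motif within 24 bases of the start. Other members hold it there too, among them Cfap44 (-20), Tekt1 (-15), Dnaaf2 (-10) and Ift27 (-9), and Dnaaf2 was not called. The sequences of the 4 examples are printed 5′ to 3′ on the gene's strand, with the motif in capitals on whichever strand it reads. They lie at chr5:30281273-30281392 (Drc1, plus strand), chr8:110266857-110266976 (Hydin, plus), chr10:103236323-103236442 (Lrriq1, minus) and chr11:87853095-87853214 (Mks1, plus).
Drc1: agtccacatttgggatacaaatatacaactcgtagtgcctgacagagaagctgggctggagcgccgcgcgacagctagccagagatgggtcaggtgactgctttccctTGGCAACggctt
Hydin: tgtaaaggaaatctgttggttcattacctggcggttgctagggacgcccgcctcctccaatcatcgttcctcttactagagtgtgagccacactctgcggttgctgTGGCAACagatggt
Lrriq1: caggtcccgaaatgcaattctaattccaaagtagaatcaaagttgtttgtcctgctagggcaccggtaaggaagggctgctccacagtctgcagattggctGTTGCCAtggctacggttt
Mks1: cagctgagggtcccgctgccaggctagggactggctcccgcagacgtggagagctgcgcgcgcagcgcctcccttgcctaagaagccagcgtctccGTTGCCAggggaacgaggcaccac

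The 4 genes range over the cilium. Drc1, of the nexin-dynein regulatory complex, was at 1145, 1141 and 1052 in High and 194, 131 and 114 in Mid (log2 2.96). Lrriq1, listed with the axonemal proteins, was at 481, 571 and 318 against 92.1, 125 and 58.2 (log2 2.33). Mks1, a transition zone protein found in immotile cilia too, was at 462, 397 and 483 against 247, 202 and 155, and its log2 difference of 1.17 was the smallest of the 4.

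Of the genes through which node flow sets the left side, 7 of 14 tested rose (50%) and 2 fell (14.3%). Of all genes tested 13.3% rose and 12.3% fell. Nodal, Dand5 and Bicc1 were also counted in the node and notochord list. Nodal, the left-side ligand, was at 1635, 1633 and 1642 in High and 352, 461 and 570 in Mid (log2 1.85, SE 0.20, adjusted p = 2.22e-06). Dand5, its antagonist at the edge of the node, was at 1280, 1138 and 1280 against 132, 157 and 130 (log2 3.14). The High counts of both were nearly equal across libraries. Bicc1, an RNA-binding protein of the flow response, rose by 1.80. The channel Pkd2 was not called (-0.04, 95% interval -0.64 to 0.56). Lefty2, a Nodal antagonist, fell, with 106, 168 and 18.1 in High and 1739, 2492 and 1226 in Mid (log2 -4.63, adjusted p = 9.31e-05). Its mean in Neg was 988, also above High.

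Signalling pathways moved in parts. Of 17 Hedgehog genes 8 rose (47.1%) and 3 fell (17.6%), beside 13.3% and 12.3% of all genes tested. Beside the ligand Shh, the receptors and inhibitors Hhip (2.13) and Ptch1 (0.54) and the co-receptor Cdon (1.44) rose. The co-receptor Gas1 (-1.71) and the ligand Ihh (-1.36) fell, and so did the co-receptor Boc, from 234, 176 and 128 to 86.8, 102 and 72.6. The target Gli1 was at 210, 190 and 204 in High and 172, 142 and 166 in Mid and was not called (log2 0.33, adjusted p = 0.315). Of 17 Nodal pathway genes 6 rose (35.3%) and 3 fell (17.6%), and the co-receptor Cfc1 rose by 1.72 on the log2 scale.

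BMP genes split, with 6 of 21 higher (28.6%) and 7 lower (33.3%), beside 13.3% and 12.3% of all genes tested. Besides Nog and Chrd, the ligands Bmp5 (log2 3.21), Bmp7 (1.89) and Bmp4 (0.87) rose. The feedback inhibitors Smad7 (-2.60) and Smad6 (-1.66) and the target Id2 (-1.49) fell. Bmp7 was at 2184, 2019 and 2636 in High and 709, 728 and 445 in Mid. Smad6 was not called when only the compared groups were fitted.

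Among Wnt and FGF genes more were called lower than higher. Of 30 Wnt genes 12 fell (40%), 4 rose (13.3%) and 14 were not called, where 12.3% of all genes tested fell and 13.3% rose. The summed counts of the Wnt genes were higher in High (21221 to 25628) than in Mid (16459 to 18564). The streak ligand Wnt8a was at 35.1, 38 and 51.1 in High and 438, 378 and 372 in Mid (log2 -3.24, adjusted p = 1.11e-07). Wnt5a fell by 2.58 and Wnt3 by 2.14 on the log2 scale. Wnt11 rose (1.86), a call that was lost without ΔHx Mid replicate 2, and so did the target Sp5 (0.89). Without that library 2 Wnt genes rose. Of 18 FGF genes 12 fell (66.7%) and 1 rose (5.56%), and 3 rose without ΔHx Mid replicate 3 or with the replicate block. Fgf3 was at 33.3, 35.3 and 29.7 against 351, 256 and 198 (log2 -2.96), Fgf15 fell by 2.78 and Fgf4 by 2.30. The feedback genes Spry2 (-1.16), Etv4 (-0.79) and Dusp6 (-0.48) fell less. The receptor Fgfr2 rose (0.89), while Fgf8 was not called, with Mid replicate 3 (915) inside the High range of 617 to 943.

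Of 18 Notch genes 4 fell and 3 rose, or 22.2% and 16.7%, beside 12.3% and 13.3% of all genes tested. The ligands Dll1 (-1.25) and Dll3 (-1.30) and the modifier Lfng (-1.62), all of the segmenting mesoderm, fell. Of 16 retinoic acid genes 6 fell (37.5%) and 3 rose (18.75%). Aldh1a2, which makes retinoic acid in mesoderm, was at 1333, 1093 and 940 in High and 7350, 5985 and 4123 in Mid (log2 -2.35, adjusted p = 3.52e-05). The binding proteins Crabp1 (-4.02) and Rbp4 (-4.12) fell and the reductase Dhrs3 rose (1.38). The breakdown enzyme Cyp26a1 was not called (0.33).

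Definitive endoderm, which forms the gut, held both rises and falls. Of 21 tested genes 8 rose (38.1%) and 4 fell (19.0%), beside 13.3% and 12.3% of all genes tested. The list's median was -0.03. Krt19 was at 5623, 4902 and 3936 in High and 730, 693 and 697 in Mid (log2 2.75, adjusted p = 1.95e-07), and Krt8 was at 23774, 23207 and 24490 against 8368, 8079 and 9906 (log2 1.44). Both are simple-epithelial keratins, also made in the node. Sox17, the SOX factor that defines endoderm, was at 1428, 1310 and 1973 in High and 1188, 1227 and 1432 in Mid. Those libraries overlapped and it was not called (log2 0.27, 95% interval -0.11 to 0.66). The adhesion protein Epcam lay at 3957 to 4186 and 3922 to 4591 (log2 -0.03, 95% interval -0.28 to 0.22). Foxa1 (1.11, 95% interval 0.00 to 2.22) was not called. Spink1, a trypsin inhibitor, fell (-2.58), and so did Trh (-0.48). Sox21 rose (1.27), a call lost under 6 alternatives. Of 14 factors of endoderm organs 6 fell (42.9%), among them Tbx3 (-2.63), and 1, Prox1 (1.86), rose (7.14%).

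Genes shared by both gates can be seen apart from the direction of the step. There were 175 genes with means of at least 50, and at least 4 times the Neg mean, in both ΔHx gates. Of these 87 rose, 21 fell and 67 were not called, where 13.3% of all genes tested rose and 12.3% fell. In 21 of the 175 the 95% interval of the log2 difference lay within 1 of 0, Tmprss2 and Sox17 among them. Tmprss2, a membrane protease, was at 2700, 2730 and 2436 in High and 3241, 3162 and 3526 in Mid (log2 -0.34).

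Epithelial junctions and keratins leaned upward, with 15 of 35 higher (42.9%) and 4 lower (11.4%), beside 13.3% and 12.3% of all genes tested. Cldn9, a tight junction claudin, was at 1485, 1128 and 942 in High and 92.1, 119 and 172 in Mid (log2 3.23, adjusted p = 5.95e-07). Grhl2, an epithelial transcription factor, rose by 1.09, as did the mesenchymal and axial cadherin Cdh2 (1.09) and E-cadherin, Cdh1 (0.64). Vil1, the microvillus protein villin, fell from 1127, 1171 and 976 to 121, 254 and 129 (log2 -2.77).

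**Figure D3:**
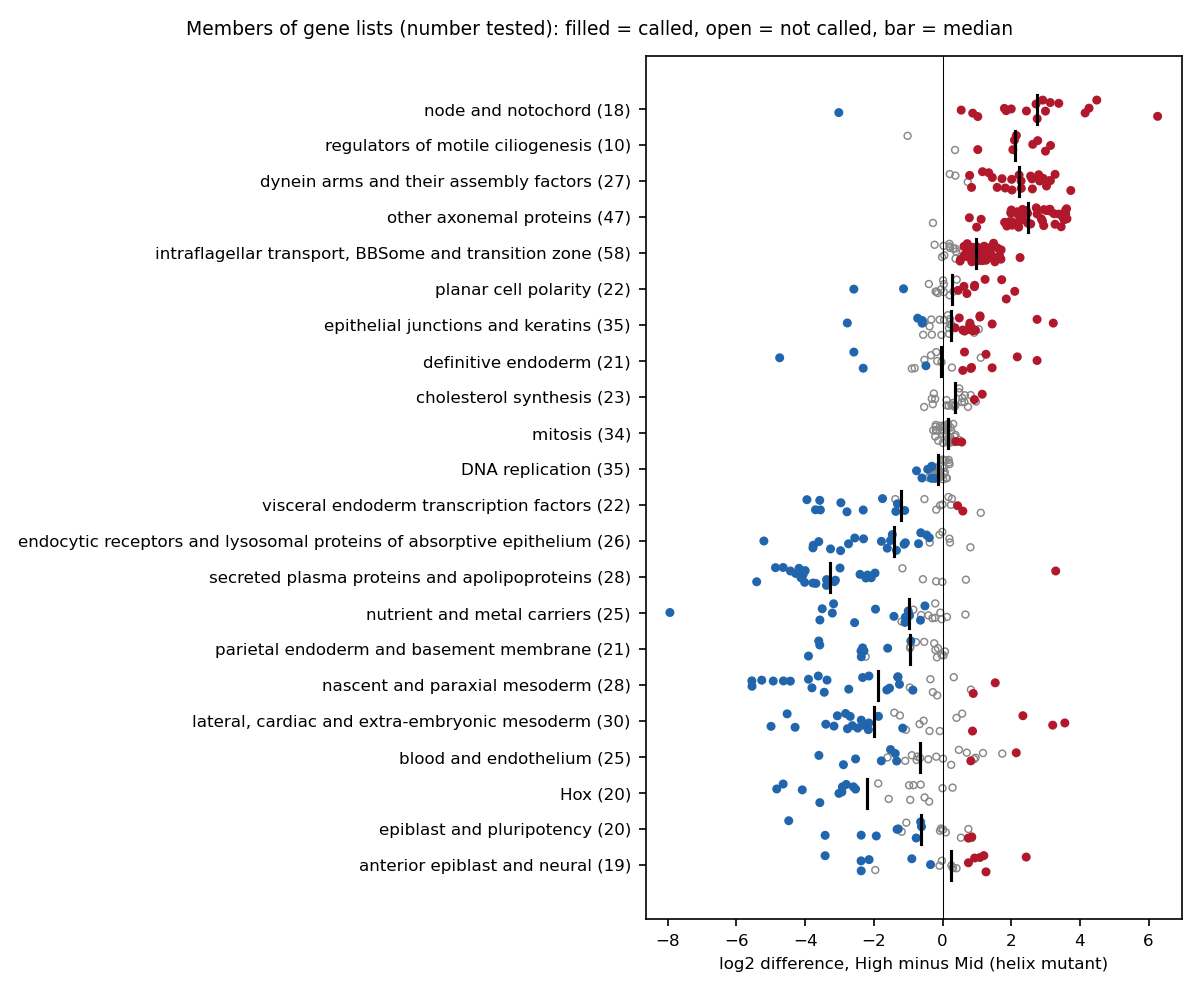
The log2 difference, High minus Mid, of every tested member of 22 gene lists in ΔHx embryos. Filled points were called, open points were not, and black bars are list medians. The node and ciliary lists lie to the right of 0, with medians from 0.97 to 2.74. Plasma proteins, mesoderm and Hox genes lie to the left, with medians from -1.88 to -3.26. Mitosis and DNA replication genes crowd around 0.

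The visceral endoderm gave the broadest group of falls. Of 28 secreted plasma proteins and apolipoproteins, which the yolk sac makes as the liver does later, 22 fell and 1 rose. The median was -3.26, where 12.3% of all genes fell. Apoa4, an apolipoprotein, was at 44.7, 65.2 and 15.7 in High and 970, 1058 and 1210 in Mid (log2 -4.86, adjusted p = 4.86e-06). Fga, a fibrinogen chain, was at 4.38, 8.15 and 0 against 135, 90.7 and 60.4 (log2 -4.64). Afp, α-fetoprotein, was at 254, 336 and 56.9 against 3059, 3337 and 3529 (log2 -4.27). The gates lay far apart in all 3. Ttr, which carries thyroxine and retinol, was at 278, 736 and 192 against 5344, 5256 and 5786, and Apob, the lipoprotein scaffold, at 432, 1207 and 290 against 6501, 6783 and 7410 (log2 -3.69). High replicate 2 had the highest count of the gate in each of these 5. Vtn, vitronectin, was the exception, with 1386, 1199 and 1220 in High and 161, 98.5 and 132 in Mid (log2 3.30, adjusted p = 0.00426). Of the 28 members 24 had their highest ΔHx mean in Mid, above both High and Neg.

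Uptake proteins fell with them, 20 of 26 and 0 higher (median -1.40). Cubn, the endocytic receptor of the visceral endoderm and kidney, was at 156, 396 and 212 in High and 8721, 8792 and 8633 in Mid. The Mid libraries were nearly equal and the log2 difference was -5.20 (SE 0.41, adjusted p = 4.98e-08). Its partners fell as well: Amn by 3.77, Lrp2 by 3.76 and the adaptor Dab2 by 3.60 on the log2 scale. Lysosomal proteases fell less, such as Ctsl (-2.30) and Ctsb (-1.78), and the widely expressed Lamp1 (-0.46) least of the 20 but for Npc2 (-0.38). The transferrin receptor Tfrc was not called (-0.01).

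Of 22 transcription factors and regulators of the visceral endoderm 11 fell (50%) and 2 rose (9.09%), where 12.3% and 13.3% of all genes did. Hnf4a, the nuclear receptor that runs much of the liver and yolk sac programme, was at 28.1, 114 and 48.7 in High and 556, 582 and 834 in Mid (log2 -3.56, SE 0.67, adjusted p = 0.0006). Tfec (-3.95), Maf (-3.70) and Sox7 (-3.58) fell too. Gata6, Foxa3 and Klf5 were not called. Elf3 rose by 0.59, a call lost without High replicate 1, Mid replicate 1 or Mid replicate 2. Nutrient and metal carriers followed the absorptive genes, with 14 of 25 lower and 0 higher. Besides Slc2a2, the amino acid carriers Slc7a9 (-3.57) and Slc7a8 (-3.17) and the zinc carrier Slc39a5 (-3.21) fell, while the ubiquitous glucose transporter Slc2a1 was not called (0.13). Of 22 serpins and secreted inhibitors and proteases 7 fell (31.8%), led by Serpinf2 (-4.86) and Serpinc1 (-4.33), and 2 rose (9.09%), among them Wfdc2 (1.22).

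The letters GTTAATNAT, a form of the HNF1 motif, were searched on both strands in the same RefSeq windows. They stood in 14 of 346 promoters of genes called at least 4-fold lower (4.05%), in 3 of 55 visceral endoderm promoters (5.45%) and in 0.439% of the promoters of tested genes. Of promoters of genes called at least 4-fold higher, 1.02% held them. The forkhead letters TGTTTAC stood in 2.5% of tested promoters, 4.57% of those at least 4-fold higher and 3.47% of those at least 4-fold lower. By list they stood in 7.27% of visceral endoderm and 5.0% of axonemal promoters, and in 0 of 50 transport and 0 of 11 node promoters. The HNF4 letters CAAAGTCCA stood in 0 of 55 visceral endoderm promoters and 0.403% of tested promoters. They stood in 0.254% of those at least 4-fold higher and 1.45% of those at least 4-fold lower. For the GATA letters AGATAA these 4 shares were 9.09%, 6.39%, 6.6% and 9.25%. The next 2 sequences, both from serum protein genes on chromosome 5, are shown because they hold the HNF1 letters in genes that differed strongly. Each is the 120 bases before the RefSeq start, at chr5:90490594-90490713 (Afp, plus strand) and chr5:89457899-89458018 (Gc, minus strand), with the motif in capitals.
Afp: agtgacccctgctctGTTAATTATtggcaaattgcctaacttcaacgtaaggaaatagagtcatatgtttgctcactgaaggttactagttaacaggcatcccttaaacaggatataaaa
Gc: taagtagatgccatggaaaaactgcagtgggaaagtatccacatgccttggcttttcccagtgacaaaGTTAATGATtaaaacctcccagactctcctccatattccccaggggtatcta

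Gc, the vitamin D carrier, had 1 read in the 3 High libraries and 155 in Mid. Afp was not at 0 in any High library, and its lowest, 56.9, was in High replicate 3.

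Summed counts of the visceral endoderm lists in High lay nearer to Neg than to Mid. For all 32 listed plasma protein genes, tested or not, they were 9664 to 18088 in High, 70870 to 87995 in Mid and 6849 to 9436 in Neg. For the 26 uptake genes they were 23309 to 29234, 73684 to 79129 and 23336 to 24202, and the High and Neg ranges overlapped. High replicate 2 was the highest of its gate in both sums. In bulk libraries fewer cells of a type and less RNA per cell cannot be told apart. The same holds for every list here.

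**Figure D4:**
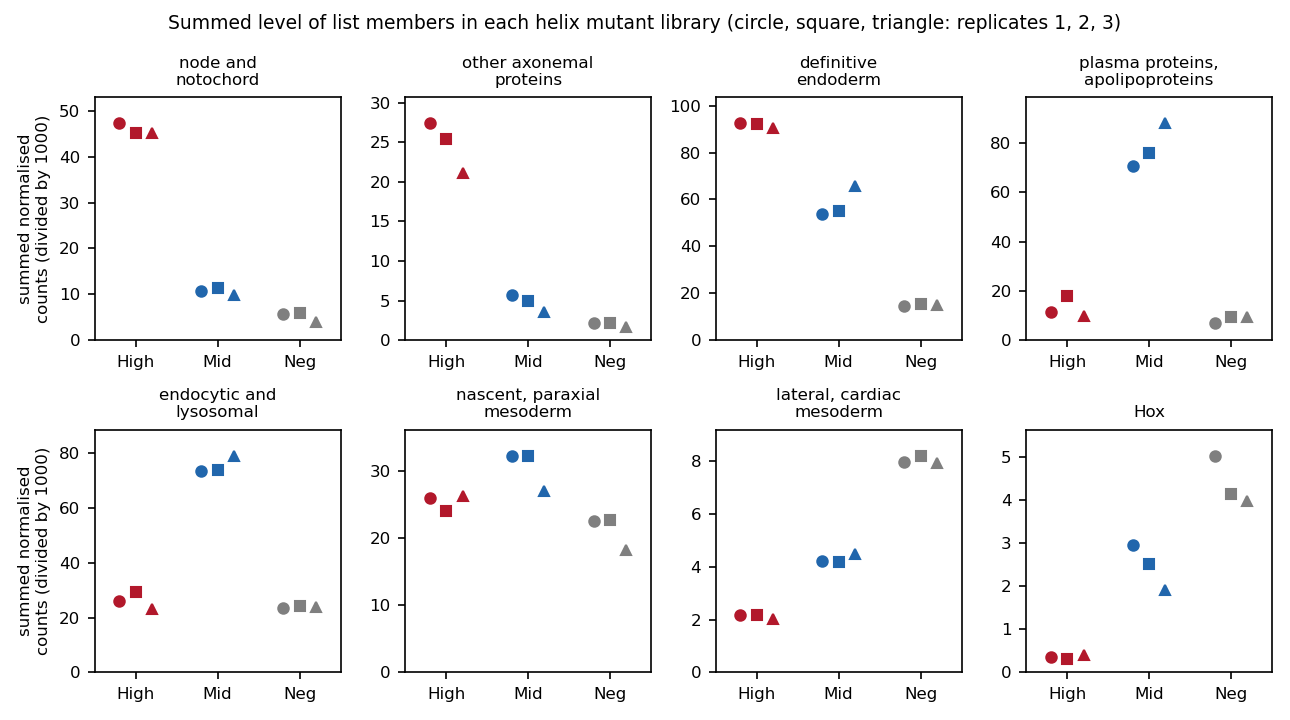
Summed normalised counts (divided by 1000) of the members of 8 gene lists, tested or not, in each of the 9 ΔHx libraries, by gate. Circles, squares and triangles are replicates 1, 2 and 3. Node, axonemal and definitive endoderm sums are highest in High, plasma protein and uptake sums in Mid, and lateral mesoderm and Hox sums in Neg. Of the 21 tested definitive endoderm genes, however, 10 have their highest ΔHx mean in High and 11 in Mid. The nascent mesoderm sums of High and Mid lie close, at 24051 to 26338 and 27067 to 32351, and Aplnr, which rose, has a mean of 11376 in High.

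Nascent and paraxial mesoderm genes were lower in High. Of 28 tested, 20 fell and 2 rose (median -1.88). Ripply2, a regulator of somite boundaries, was at 11.4, 17.2 and 0.825 in High and 393, 382 and 282 in Mid (log2 -5.55, adjusted p = 1.93e-05). Pcdh19, a protocadherin, was at 21.0, 34.4 and 14.8 against 1179, 1009 and 1062 (log2 -5.55). Mesp2, a factor of segmentation, was at 4.38, 9.06 and 0 against 222, 201 and 67.3 (log2 -5.27). High replicate 3 was the lowest library in each of these genes. The early mesoderm factor Mesp1 was at 96.5, 94.2 and 31.3 against 700, 885 and 621 (log2 -3.44). Tcf15 (-4.93), Foxc2 (-4.43), Pdgfra (-3.90) and Meox1 (-3.62), all of paraxial mesoderm, fell as well. Eomes (-0.16) and Mixl1 (-0.28), of the early streak, were not called. The apelin receptor Aplnr rose, from 5066, 4730 and 2494 to 12734, 11145 and 10249 (log2 1.53, SE 0.21, adjusted p = 2.74e-05). Of the 28 genes 16 had their highest ΔHx mean in Mid, 8 in Neg and 4 in High.

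Lateral, cardiac and extra-embryonic mesoderm genes were lower as well, 17 of 30 (56.7%) against 4 higher (13.3%), with a median of -2.01. Of all genes tested 12.3% fell and 13.3% rose. Wnt2, a ligand of the heart-forming region, was at 13.2, 2.72 and 0 in High and 126, 168 and 78.7 in Mid (log2 -4.99). The troponin gene Tnni1 (-4.53), the cardiac actin Actc1 (-2.77) and the EMT factor Twist1 (-3.40) fell. Unlike the paraxial genes, 24 of these 30 had their highest ΔHx mean in Neg. The matrix protein Postn rose, with 140, 101 and 186 against 6.51, 12.7 and 14.8 (log2 3.56), as did Bmp5 and Bmp4. Tbx4 was called higher on 5.69 ± 2.95 in High against 92.9 ± 39.7 in Neg, so its level in both gates was low.

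Of 17 genes of the epithelial to mesenchymal transition 8 fell (47.1%) and 3 rose (17.6%), where 12.3% and 13.3% of all genes did. The matrix protein fibronectin, Fn1, was at 2351, 2554 and 2514 in High and 13009, 12397 and 9981 in Mid (log2 -2.25, SE 0.11, adjusted p = 2.36e-10). Snai1, a repressor of E-cadherin, fell by 2.33 on the log2 scale. Without ΔHx Mid replicate 2 the falls in this list were 5. Hox genes gave 10 falls and 0 rises among 20 tested (median -2.20). Hoxb3 had the largest fall (-4.83). Hoxb1 was at 260, 202 and 285 against 1765, 1562 and 1063 (log2 -2.53, adjusted p = 5.75e-07), and Hoxb2 (-4.08) and Hoxa2 (-4.64) fell likewise. Hoxb5, Hoxb8 and Hoxc8 were not called (0.29, -0.39 and 0.00). Hoxb1 had a Mid level near that of Neg in the plot of counts by gate, while the other 19 genes had their highest ΔHx mean in Neg.

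Blood and endothelial genes gave 7 falls (28%) and 2 rises (8%) among 25, where 12.3% of all genes tested fell and 13.3% rose. The progenitor factors Lmo2 (-1.78) and Runx1 (-1.38) fell, and Itga2b, an integrin of early blood cells and platelets, rose from 16.7, 15.6 and 13.7 to 68.4, 77.0 and 68.4 (log2 2.15). Kdr (-1.51) and Gata2 (-1.34) fell, and both calls were lost under 7 or more alternatives. With only the compared groups fitted the falls were 4. The embryonic globin Hbb-bh1 was at 0, 0 and 1.65 in High and 43.7, 31.2 and 2.28 in Mid. Gata1, the erythroid factor, was at 202 to 425 in High and 81.0 to 179 in Mid and was not called (adjusted p = 0.0737).

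Of 20 epiblast genes 9 fell (45%) and 2 rose (10%), beside 12.3% and 13.3% of all genes tested. Tdh, threonine dehydrogenase, was at 28.1, 41.7 and 66.0 in High and 921, 1019 and 978 in Mid (log2 -4.48, adjusted p = 4.82e-09). Pou5f1 (Oct4) was at 804, 719 and 846 against 1347, 1091 and 1189 (log2 -0.61), and Nanog was not called (0.10). Tdgf1 was called higher (0.85), a call lost under 8 alternatives. Anterior epiblast and neural genes split, with 6 of 19 higher and 6 lower (31.6% each). Otx2, the head homeobox factor, rose by 0.75, while Sox2 fell (-2.37) on libraries that overlapped, with 13.7 in Mid replicate 2 and 16.5 in High replicate 3. Without ΔHx Mid replicate 1 the rises were 3, and with only the compared groups fitted the falls were 3. Without ΔHx Mid replicate 1 no epiblast rise was called by limma. Among 10 germ cell genes 3 fell (30%) and 1, the receptor Kit (1.05), rose (10%), and the falls were 0 without ΔHx High replicate 2. Among 14 genes of the extra-embryonic ectoderm 5 fell (35.7%) and 1, Krt7 (0.88), rose (7.14%). Of the 5, Peg10 (-2.15) alone had a mean over 50 in these gates. Without ΔHx High replicate 3 the falls were 3. The trophoblast hormone Prl3d1 had counts of 0 in 5 of the 6 libraries.

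Among 27 forkhead genes other than Foxa2, 2 rose (7.41%) and 6 fell (22.2%), beside 13.3% and 12.3% of all genes tested. The rises were Foxj1 and Foxd4, and the mesodermal Foxc2 (-4.43), Foxc1 (-3.36) and Foxf1 (-3.16) fell furthest. Of 22 planar polarity genes, which orient the node's cilia, 9 rose (40.9%) and 2 fell (9.09%). Prickle2 was at 680, 763 and 867 in High and 179, 157 and 200 in Mid (log2 2.10, adjusted p = 2.4e-07), and Fuz, which also serves ciliogenesis, rose by 1.72, Fzd6 by 1.24. The core protein Vangl2 was not called (0.41). Without ΔHx Mid replicate 2 the rises were 5. Of 34 guidance genes 7 rose (20.6%) and 8 fell (23.5%). The midline repellent Slit2 was at 3669, 3474 and 2716 against 463, 631 and 381 (log2 2.76), and Epha4 fell from 1705, 1766 and 1625 to 565, 631 and 530 (log2 -1.56).

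Cell cycle and housekeeping lists differed in their share of calls by limma, and several counts moved with the setting. Of all genes tested 13.3% rose and 12.3% fell. Of 35 DNA replication genes 7 fell (20.0%) and 0 rose (median -0.13). Cdt1, which licenses origins, was at 967, 787 and 1114 in High and 1454, 1480 and 1906 in Mid (log2 -0.76), and Ccne1 fell by 0.60. That count of falls was 2 with libraries at equal totals and 14 with array weights, and 3 to 4 without High replicate 2, Mid replicate 1 or Mid replicate 2. It was 12 with DESeq2 or with the replicate block and 3 with only the compared groups fitted. In the WT step 16 of the 35 fell. Of 34 mitosis genes 2 were called higher (5.88%), Ect2 and Ndc80, and each call was lost under 6 alternatives. The count of rises was 9 with quantile normalisation, 8 with the replicate block and 5 with equal totals without Rn45s, and 4 fell with array weights. In 33 and 29 of these 2 lists' genes the highest ΔHx mean was in Neg. Ccnd2, a G1 cyclin, rose by 0.83, and Cdk6 fell (-1.11). Of 23 glycolysis and hypoxia genes 2 rose and 2 fell (8.70% each). Ndrg1, a hypoxia-responsive protein of differentiating cells, stood far from the rest with 4081, 3919 and 3413 against 895, 826 and 421 (log2 2.48). Of 23 cholesterol synthesis genes 2 rose (8.70%). With only the compared groups fitted 8 did, with the replicate block 11, and 1 did without any one of the High replicates, Mid replicate 2 or Mid replicate 3. Of 35 respiratory chain genes 5 fell (14.3%), by at most 0.63 on the log2 scale, and 1 did with equal totals. Of 20 genes of the unfolded protein response 1 fell (5%), Dnajb11, a call lost under 11 alternatives.

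Of 18 immediate-early and heat shock genes, which dissociation can induce, 1 was called, Hspa1a (log2 1.92), whose reads are hard to tell from those of its near copy Hspa1b. No gene of the list was called higher by edgeR, with no filter, or without High replicate 1 or High replicate 2, and with array weights 4 were called higher and 3 lower. Fos was at 1791, 1690 and 1700 in High and 817, 1084 and 1484 in Mid and was not called (adjusted p = 0.21). None of the 6 sex-linked genes was called by limma, and 1 was called lower with only the compared groups fitted or with the replicate block. Xist was at 1536, 1428 and 1836 in High and 2614, 2357 and 3305 in Mid, groups that did not overlap (log2 -0.78, adjusted p = 0.175), and Eif2s3y lay at 389 to 540 and 375 to 409. What part the sexes of the pooled embryos played was not tested.

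The same step between gates in WT embryos was the nearest comparison. It used 6 other libraries, fitted in the same model, so each gene had 1 spread for both. In WT 3593 genes were called (24.4%), 1774 higher and 1819 lower. Of the 1959 genes higher in ΔHx High, 1297 (66.2%) were also called higher in WT, which is 73.1% of the WT calls. Of the 1810 lower, 1089 (60.2%) were called lower in WT, 59.9% of its calls. Only Hs3st1, a heparan sulphate sulfotransferase, and Pax6 were called in opposite directions. Pax6 was low in these gates, at most 11.2 in a ΔHx library and with a mean of 0 in WT Mid. The difference between the steps was called by limma for 2 genes (0.0136%), with 902 at an unadjusted p under 0.05, and edgeR called 1 and DESeq2 26 on recovered reads.

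Those 2 genes were Slc6a2 and Nid1, and in both the ΔHx libraries were flat while WT Mid was high. Slc6a2, the noradrenaline transporter, was at 1.75, 1.81 and 0 in ΔHx High and 1.86, 0 and 1.14 in ΔHx Mid, with a mean of 1.10 in WT High and 482, 165 and 160 in WT Mid. The steps differed by 7.09 (limma, adjusted p = 0.0359), with only 4 reads in ΔHx High and 3 in ΔHx Mid. Nid1, a basement membrane protein, was at 339, 417 and 578 in ΔHx High and 303, 496 and 512 in ΔHx Mid, against a mean of 329 in WT High and 16229, 2245 and 3437 in WT Mid. The steps differed by 3.99 (adjusted p = 0.0422). WT Mid replicate 1 was the highest in both. Without it the differences were 6.57 (adjusted p = 0.0658) and 3.14 (adjusted p = 0.000791). These calls were unstable over the alternatives: with only the 4 compared groups fitted the adjusted p-values were 0.144 and 0.576, and leaving out ΔHx Mid replicate 2 gave 0.119 for both. Over all alternatives the adjusted p ranged from 0.000136 to 0.277 for Slc6a2 and from 0.000118 to 0.576 for Nid1.

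Nid1 belongs to the parietal endoderm and basement membrane list. In ΔHx 9 of its 21 genes fell and 0 rose, with a median of -0.94. In WT 19 of the 21 fell, with a median of -2.77. Of the 21 differences between steps 14 had an unadjusted p under 0.05, and 1 was called by limma, 1 by edgeR and 3 by DESeq2. Sparc, a matrix protein, was at 1877, 2094 and 1676 in ΔHx High and 2366, 2483 and 3402 in ΔHx Mid, with a mean of 1954 in WT High and 37581, 5336 and 9018 in WT Mid. Col4a1, of basement membrane collagen, was at 2908 to 3530 and 5450 to 7687 in ΔHx (log2 -0.94, adjusted p = 0.0606), and its WT step was -2.71. Lama1 fell in ΔHx by 2.37 on the log2 scale. The members' summed counts were 21779 to 23751 in ΔHx High and 39557 to 46433 in ΔHx Mid. In WT Mid they were 334950, 69392 and 101600, so replicate 1 held several times the sum of the other libraries, and all 3 lay above ΔHx Mid. What part unequal amounts of this cell type in the sorts played was not tested. F3, Epas1 and Nrcam came next among differences on that side, at an adjusted p of 0.133 (limma). With the replicate block F3 (limma, adjusted p = 0.0185) and Nrcam (0.0331) were called and Epas1 (0.134) was not, and DESeq2 called all 3.

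**Figure D5:**
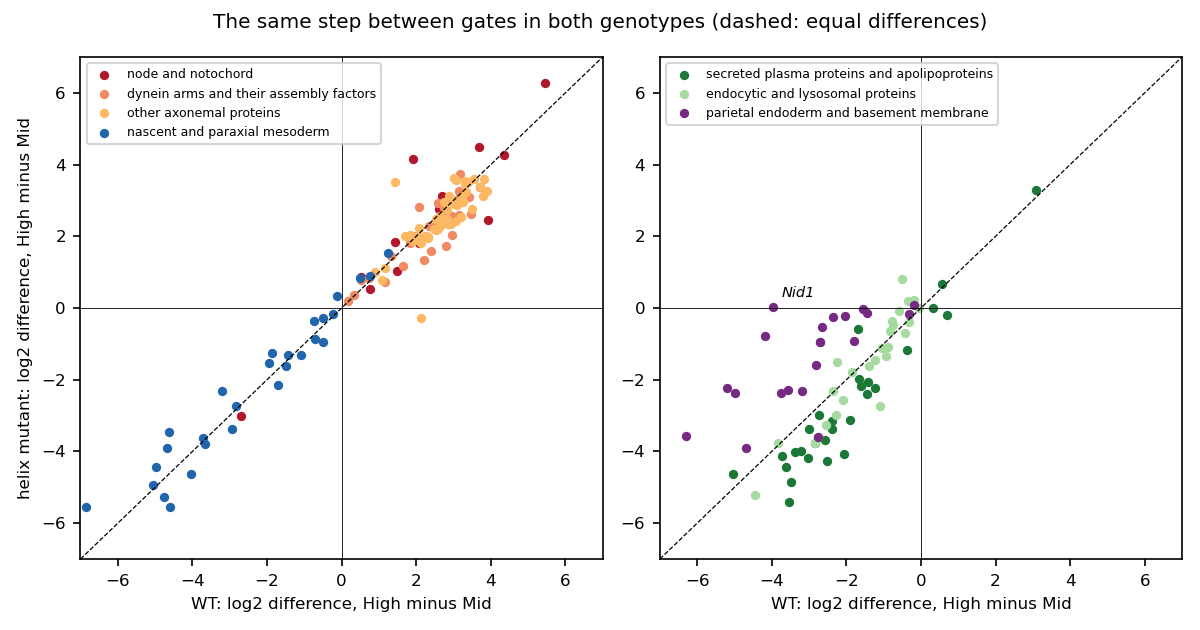
The log2 difference, High minus Mid, in WT (horizontal) and ΔHx (vertical) embryos for members of 7 gene lists. Each point is a gene, and the dashed line marks equal differences. Node, axonemal and paraxial mesoderm genes lie along the line in the left panel. In the right panel most parietal genes lie above it, with Nid1 at -3.96 in WT and 0.03 in ΔHx, and most plasma protein genes lie below it.

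For other lists the medians of both genotypes stand side by side. The node and notochord list had medians of 2.74 in ΔHx and 2.64 in WT, dynein arms 2.23 and 2.47, other axonemal proteins 2.48 and 2.82, and nascent mesoderm -1.88 and -1.90. Plasma proteins had -3.26 and -2.39, with 0 of 28 differences called by limma, edgeR or DESeq2 and 5 at an unadjusted p under 0.05. Lateral mesoderm had -2.01 and -0.92, with 0 of 30 called by any of the 3 and 2 unadjusted. For single genes the interval of the difference between the steps was wide, so these counts do not show that the genotypes act alike. On the other side, where the ΔHx step lay below the WT step, Nepn, Ralgapa1, Heyl and Pax6 were among the genes with the smallest adjusted p-values, 0.166 to 0.304 (limma).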

How the data were processed

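RNA-seq of FACS-sorted cells was measured in 18 libraries, 3 for each of 2 genotypes and 3 gates. Per the submitters' processing notes the tools were HTSeq 0.6.1, STAR 2.5.2a, DESeq2 and DESeq, with build mm10. Which annotation was counted is not given in the sources here. The deposited values are a normalised signal, gene counts that the authors divided by a size factor. Dividing by the value of 1 read gave whole reads in 440964 of 440964 values (tolerance 1e-06). The 5 counter lines were left out.

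The 14711 genes reaching 10 in 3 or more libraries were fitted on log2(value + 1) with limma 3.58.1 (R 4.3.3), trended variance, 6 group means and all 18 libraries. Benjamini-Hochberg adjustment ran over all of them, and the threshold for a call was an adjusted p of 0.05. edgeR 4.0.16 and DESeq2 1.42.0 were run on the recovered reads as alternatives. Further alternatives were other pseudocounts, filters, scalings and variance models, a replicate block, and each library left out. Intervals on reads cover counting error only. On simulated counts for this comparison (14481 genes) limma recovered 67 of 100 genes changed 2-fold and 95 of 100 changed 4-fold. The changed genes were drawn from those with a mean of at least 50 over both gates, so recovery of lower genes was not measured. No other gene was changed in the simulation, whereas 3769 were called in the data.

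The members and gene lists were chosen with earlier results of these data known. Lists share members, such as Shh, Foxj1 and Nodal, so their counts are not of separate genes. Genes are named by a rule: Foxa2, the 12 largest rises and 12 largest falls of called genes (higher mean 50 or more, no overlap), up to 4 called members of each list in its main direction and 1 in the other, and the 5 smallest adjusted p-values on each side for the difference between genotypes. Other list members were named after their values were seen. Libraries are unstranded, so reads of a gene and an overlapping antisense gene are mixed. Gene positions are from GENCODE on mm10 and promoters from RefSeq. Some genes that meet the rule are not reported here.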

Additional observations from a re-analysis of the deposited data

Results flagged for a closer look

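The step from Mid to High differed between the genotypes by limma's test of the difference itself in 2 genes. It was 7.09 higher on the log2 scale in ΔHx than in WT for Slc6a2 and 3.99 higher for Nid1. In both, WT Mid was high and the other groups were low, and WT Mid replicate 1 was the highest library. Slc6a2 had 4 reads in ΔHx High and 3 in ΔHx Mid. Its ΔHx step could therefore not be measured, and the value describes the WT step.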

How the results depend on the processing

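The 179 genes named for the step were followed through 13 other settings and 6 left-out libraries. Wherever they were tested 154 kept their call and direction, 25 lost the call in at least 1, and 0 reversed. A setting that did not test a gene, such as the filter at 50 for Gc, was passed over. The calls ran from 1527 to 1776 higher and 1378 to 1681 lower with a library left out, and 2186 genes kept their call in all 6 cases. In WT they ran from 1419 to 1761 and 1344 to 1660. With equal totals the lower calls were 1142 in ΔHx and 982 in WT, and fitting only the compared groups gave 1090 lower in WT. The cause was not tested. Genes whose step differed between genotypes numbered 2, and 26 with DESeq2, 5 with the replicate block, 4 with array weights, 1 with edgeR, with no filter and with robust variances, and 0 with a filter at 50, with only the compared groups or with a pseudocount of 0.5. With a library left out they numbered 0 to 24. List medians near 0 in the main fit were not counted for changes of sign, and of the others 3 changed sign. BMP was 0.00197 with a filter at 50, and DNA replication was 0.00667 with equal totals. The germ cell median was 0.000961 without ΔHx High replicate 1 (down to -0.309 without another library). Deviations of ΔHx High and Mid libraries with equal replicate numbers correlated at 0.0911, 0.0182 and 0.0483. These values are small, but each library's highest correlation was with its own number. In WT equal numbers correlated at 0.1745, 0.09697 and 0.2913, and unequal numbers at -0.2049 to 0.03557. Whether equal numbers share a litter or a day was not tested. With the replicate block 2251 genes were higher and 2216 lower in ΔHx High. Depth limits genes near 10 counts, where 1 read is worth 0.825 to 1.14.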
